A study of Mus musculus with 9 samples.

Results

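The 45 genes described here encode parts of the cilium that joins the inner and outer segments of a photoreceptor, the machinery of intraflagellar transport (IFT) along it, and carriers of lipid-anchored proteins into it. They were chosen by name from 21769 mouse genes counted in whole retina, and all 45 were present in the count files. Polyadenylated RNA was sequenced in 9 libraries of 2 retinae each, from 3 groups of 3 biological replicates. The wild type group was labelled normal and taken at postnatal day 48, and the GFP group, labelled normal and GFP-expressing, was read here as the line given as Gg13, taken at day 42. The rd10 group was labelled degenerated and taken at day 61. Mice of the rd10 line carry a missense mutation in Pde6b, which encodes the beta subunit of the rod phosphodiesterase. The labels used here name neither the promoter nor the cells that carry GFP, and they name no further allele. Age differed between all 3 groups, so an effect of age and an effect of genotype cannot be told apart.

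A photoreceptor renews its outer segment throughout life, and all of the protein and membrane that it adds must pass through a narrow connecting cilium, the counterpart of the transition zone of other cilia. IFT trains are built of complexes A and B and are moved along the axoneme by kinesin-2 towards the tip and by dynein-2 back to the base. The BBSome, a coat assembled with the help of chaperonin-like proteins, links membrane proteins to them. Small carrier proteins bring lipidated enzymes of phototransduction to the outer segment. Inherited loss of many of these genes is a known cause of retinal degeneration, alone or with disease of other ciliated organs. Most other cells of the retina, neurons and glia included, also bear a primary cilium.

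Of the 45 genes, 31 were lower in rd10 than in wild type retina and 0 were higher, while 13.9% of all 14300 genes tested were lower and 14.5% were higher (edgeR quasi-likelihood test, adjusted p below 0.05). The fall was at least 2-fold for 21 of the 45, against 6.87% of all genes tested. The median log2 difference over the 45 genes was -0.84, and over all genes tested it was -0.032. All 8 BBSome genes, the 3 chaperonin-like genes and the 3 carriers of lipidated cargo were among the genes that fell, whereas 0 of the 3 IFT motor genes and 7 of all 17 IFT and motor genes passed the test. Some motor genes outside the 45 did fall, as given below. By library, 31 of the 45 genes had all 3 rd10 values below all 6 values of the wild type and GFP libraries, against 19.0% of all genes tested. This set includes Ift52, which did not pass the test, and lacks Wdr35, which did. In bulk tissue, fewer cells of a type and less RNA per cell cannot be told apart.

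**Figure D1:**
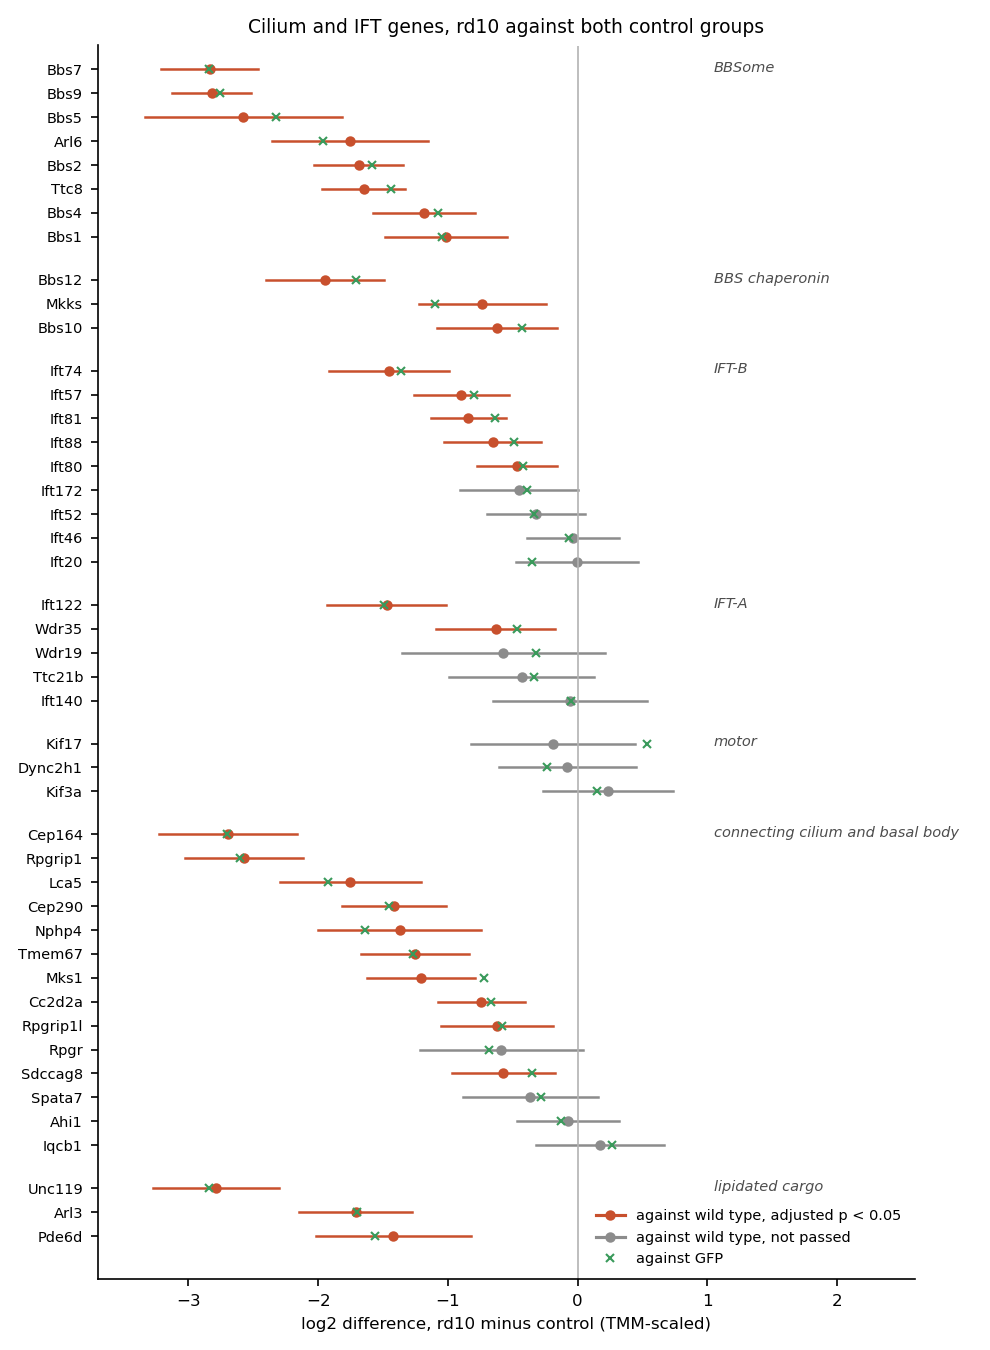
Log2 difference of rd10 minus each control group for the 45 genes, ordered by role. Lines are 95% intervals of the difference from wild type (n = 3 libraries per group), orange points passed an adjusted p of 0.05 and grey points did not, and green crosses give the difference from GFP. Against wild type the points run from -2.84 for Bbs7 to 0.23 for Kif3a.

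Promoter sequence is shown for 2 genes with large falls and a single annotated start, Rpgrip1 and Bbs7, since each holds a match to a motif bound by a factor known for photoreceptor or ciliary genes. The 250 bases before the annotated start were taken from RefSeq on GRCm38.p6 and run 5′ to 3′ along the gene's strand. Capitals mark GGATTA, the reverse complement of the CRX core TAATCC, in Rpgrip1 (chr14:52110653-52110902, plus strand), and the RFX X-box in Bbs7 (chr3:36613390-36613639, minus strand).
Rpgrip1: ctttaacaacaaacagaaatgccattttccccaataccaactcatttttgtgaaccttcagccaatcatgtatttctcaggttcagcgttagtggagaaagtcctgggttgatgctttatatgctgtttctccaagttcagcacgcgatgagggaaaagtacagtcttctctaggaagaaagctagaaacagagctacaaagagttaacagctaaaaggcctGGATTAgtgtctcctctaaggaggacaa
Bbs7: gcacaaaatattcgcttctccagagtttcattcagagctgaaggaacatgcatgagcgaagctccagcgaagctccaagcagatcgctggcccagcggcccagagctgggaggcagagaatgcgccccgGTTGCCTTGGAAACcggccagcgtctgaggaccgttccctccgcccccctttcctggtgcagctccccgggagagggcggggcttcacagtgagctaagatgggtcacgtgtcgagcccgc
CRX is a homeodomain factor of photoreceptors and RFX factors are known regulators of ciliary genes. Windows from 250 bases before to 50 bases after the start were found for 40 of the 45 genes, 6 of which had more than 1 start, and every window was searched on both strands. TAATCC was present in some window of 3 of the 40 (Bbs1, Rpgrip1 and Unc119) and of 8.14% of 27018 genes. The match of Unc119 lies at the second of its 3 starts, inside the gene, and not at its 5′ end. TGCTGA, the core of the element bound by the rod factor NRL, was present in 8 of the 40, or 20%, against 21.7% of all genes. The X-box, searched as GTNNCC followed after 3 free bases by GNAAC, was present in 7 of the 40, or 17.5%, against 2.49% of all genes. With the most upstream window of each gene alone, TAATCC was in 2 of the 40 (7.15% of all genes), TGCTGA in 6 (19.2%) and the X-box in 6 (2.17%), with Nphp4 no longer among the last. Of the matches of the 3 motifs in these 40 genes, 0 overlapped one another. The 7 X-box matches are shown with the fixed letters of the motif in capitals, each read 5′ to 3′ on the strand that holds the match.
Bbs1: GTcgCCttgGcAAC
Bbs4: GTcgCCcggGaAAC
Bbs7: GTtgCCttgGaAAC
Ift57: GTcaCCacgGcAAC
Nphp4: GTctCCtagGtAAC
Mks1: GTtgCCaggGgAAC
Ahi1: GTtaCCtagGcAAC
The matches lie at chr19:4906613-4906626, chr9:59353472-59353485, chr3:36613497-36613510, chr16:49699207-49699220, chr4:152477911-152477924, chr11:87853191-87853204 and chr10:20952568-20952581 in the same order, and that of Nphp4 belongs to a start inside the gene. The other 6 begin between 121 bases before the start, in Bbs7, and 24 bases after it, in Bbs4. Of these 7 genes, 6 fell in rd10, with log2 differences from -2.84 for Bbs7 to -0.90 for Ift57, and Ahi1 did not pass the test (-0.073). Among the genes with a window, 26 fell and 14 did not pass, and the X-box was found in 6 of the 26 and 1 of the 14, TAATCC in 3 of the 26 and 0 of the 14, and TGCTGA in 5 of the 26 and 3 of the 14. A match of letters is a description and does not show that a factor binds there.

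The libraries held 9597635 to 12149448 counts, and values are given in CPM, the count scaled to a common library total after TMM scaling (trimmed mean of M values). Differences are on the log2 scale with an SE derived from the F statistic of edgeR's test, and each group has n = 3 libraries. The 45 genes took 0.581 to 0.698% of the counts in the 6 wild type and GFP libraries and 0.278 to 0.286% in the 3 rd10 libraries. Their summed level was 6728 to 6977 CPM in wild type, 6251 to 7682 CPM in GFP and 2398 to 2489 CPM in rd10. Beside it, the summed level of 11 rod markers was 76232 to 102807 CPM in wild type and 517 to 1191 CPM in rd10, with all 11 lower (median log2 difference -6.89) and none at 0 counts in any library. Cone markers, from cells with the same kind of cilium, summed to 1755 to 2293 CPM in wild type and 1781 to 1868 CPM in rd10, and Müller glia markers to 3758 to 5128 and 7983 to 8608 CPM. Markers of Müller glia rose in 7 of 7 cases, of microglia in 8 of 8 and of bipolar cells in 7 of 8, while 1 of 10 cone markers fell and 1 rose. The part of these shifts in the results on the 45 genes was not tested. Transcripts of the lens marker Cryaa stood at 955 to 2267 CPM in wild type 2, wild type 3, rd10 2 and GFP 1 and at 0.158 to 10.4 CPM in the other 5. Without those 4 libraries, wild type 1 is alone in its group and is assumed to vary like the others, so only medians are given. The median log2 difference of rd10 from wild type was then -0.86 over the 45 genes and 0.0091 over all genes tested. From GFP it was -0.84 and -0.0033. Wild type 3 and GFP 2 stood apart from the other 4 control libraries on the second principal component, at -28.6 and -54.5 against 8.44 to 37.8. The rd10 libraries also spread along it, at -12.4, -21.5 and 14.6 for rd10 1, 2 and 3. Without wild type 3 and GFP 2, 32 of the 45 genes were lower in rd10 than in wild type and 31 lower than in GFP. Over all 14447 genes tested in that fit, 2320 and 2312 were lower.

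The carriers of lipidated cargo were the most abundant of the 45 genes per transcript length. Wild type means per kilobase of transcript were 1505 CPM for Unc119, 340.4 for Arl3 and 134 for Pde6d, followed by 119 for Rpgrip1 and 98.7 for Bbs7, and the lowest was 2.05 for Kif17. Unc119 (chromosome 11, 78157024 to 78162658, plus strand, mm9) binds the myristoylated alpha subunit of transducin and returns it to the outer segment. Its level was 1715, 2240.0 and 2236 CPM in the wild type libraries, 1581, 2718 and 2153 CPM in the GFP libraries and 297, 300.5 and 300.5 CPM in the rd10 libraries. The rd10 values lay close together and far below every control value, and Unc119 was 6.90-fold lower than in wild type (log2 difference -2.79 ± 0.22 SE, adjusted p = 8.48e-06). Arl3, the small GTPase that releases cargo from Unc119 and Pde6d inside the cilium, measured 287, 429 and 310.2 CPM in wild type, 281, 387 and 352 CPM in GFP and 97.3, 103 and 114 CPM in rd10. The rd10 values lay below all controls, the wild type and GFP values overlapped, and the fall was 3.27-fold (log2 difference -1.71 ± 0.20 SE, adjusted p = 1.60e-04). Pde6d, which carries prenylated proteins such as the rod phosphodiesterase, was at 126, 168 and 173 CPM in wild type, 120.1, 257 and 140.3 CPM in GFP and 63.8, 61.3 and 49.4 CPM in rd10. GFP 2 was the highest library for this gene, the rd10 values were below all others, and the difference was 2.68-fold (log2 difference -1.42 ± 0.27 SE, adjusted p = 0.00390).

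**Figure D2:**
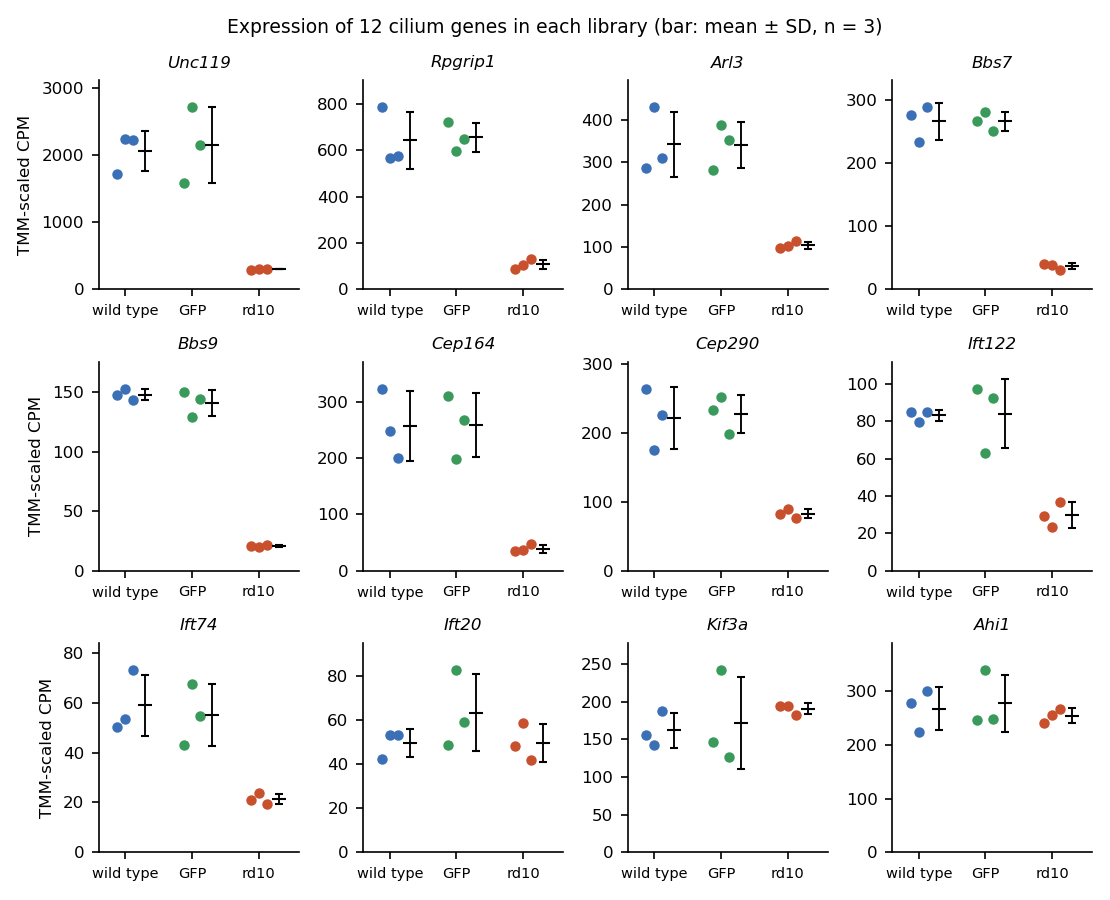
TMM-scaled CPM of 12 of the genes in each of the 9 libraries, with the mean and SD of each group (n = 3) beside the points. In the first 9 panels, Unc119 to Ift74, the rd10 points lie below every wild type and GFP point; in Ift20, Kif3a and Ahi1, which did not pass the test, the groups overlap.

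All 8 BBSome genes of the 45 fell in rd10, Arl6 counted among them. Their median log2 difference was -1.72, with a range from -2.84 for Bbs7 to -1.02 for Bbs1. Bbip1, a BBSome gene outside the 45, fell less against wild type (-0.84) and did not pass against GFP (-0.66). Bbs9 (chromosome 9, 22280159 to 22692724, plus strand, mm9), a scaffold subunit of the coat, had 148, 153 and 144 CPM in wild type, 151, 129.5 and 144 CPM in GFP and 21.3, 19.8 and 21.8 CPM in rd10. The 3 rd10 values spanned a narrow band well under the controls, a 7.07-fold fall (log2 difference -2.82 ± 0.14 SE, adjusted p = 4.61e-07) that gave the smallest adjusted p of the 45 genes. Bbs7 (chromosome 3, 36472065 to 36512311, minus strand, mm9), a propeller subunit that pairs with Bbs2 in the core of the complex and whose promoter is shown above, had 275, 233 and 288 CPM in wild type, 266, 281 and 250.3 CPM in GFP and 40.6, 39.3 and 31.4 CPM in rd10. No rd10 library came near a control, and the fall was 7.15-fold (log2 difference -2.84 ± 0.17 SE, adjusted p = 1.12e-06). Ttc8, the BBSome subunit also called BBS8, had 156, 157 and 199 CPM in wild type, 148, 145 and 149 CPM in GFP and 53.4, 52.8 and 56.8 CPM in rd10. Wild type 3 was above the other controls and all rd10 values were below them, a 3.14-fold difference (log2 difference -1.65 ± 0.15 SE, adjusted p = 1.95e-05). Bbs2, Bbs4, Bbs5 and Bbs1 differed from wild type by -1.69, -1.19, -2.58 and -1.02 on the log2 scale. Arl6, the GTPase that recruits the BBSome to membranes, had 145, 129 and 190.1 CPM in wild type, 109.8, 248.6 and 177 CPM in GFP and 47.96, 49.5 and 39.9 CPM in rd10. GFP 2 was again the highest and the rd10 values did not reach any control (log2 difference -1.76 ± 0.27 SE, adjusted p = 0.00122).

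The 3 chaperonin-like genes that help to assemble the BBSome were expressed at lower levels, and all 3 fell, by unequal amounts. Bbs12 had 30.3, 26.4 and 22.2 CPM in wild type, 19.7, 23.04 and 24.1 CPM in GFP and 7.35, 7.49 and 5.61 CPM in rd10. All rd10 values were far below the controls, whose 2 groups overlapped, with a 3.85-fold fall (log2 difference -1.95 ± 0.21 SE, adjusted p = 7.94e-05). Mkks, also called BBS6, had 35.3, 43.97 and 37.1 CPM in wild type, 36.7, 66.8 and 47.01 CPM in GFP and 21.7, 26.00 and 22.3 CPM in rd10, a 1.66-fold difference with rd10 below all controls (log2 difference -0.73 ± 0.22 SE, adjusted p = 0.0309). Bbs10 had 12.8, 17.03 and 16.5 CPM in wild type, 12.2, 13.5 and 14.97 CPM in GFP and 9.01, 11.9 and 9.22 CPM in rd10. Its highest rd10 value lay just under its lowest control value (log2 difference -0.62 ± 0.21 SE, adjusted p = 0.0467). The call of Mkks was lost without wild type 2 or 3 or rd10 1, 2 or 3 (adjusted p 0.0567 to 0.105), and that of Bbs10 without wild type 2 or 3, rd10 1, 2 or 3 or GFP 1 or 3 (adjusted p 0.0590 to 0.163). Mkks overlaps 2210009G21Rik in the deposited annotation, and the strand of the counting was not given; the partner stood at 7.77 CPM on average in wild type.

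Of the 9 genes of IFT complex B, the train for transport towards the tip, 5 fell and 0 rose, with a median log2 difference of -0.47. Ift74 and Ift81 form a tubulin-binding pair within the complex. Ift74 had 50.2, 53.4 and 72.9 CPM in wild type, 43.1, 67.6 and 54.5 CPM in GFP and 21.2, 23.7 and 19.6 CPM in rd10, all rd10 values being lower than any control. It fell 2.74-fold (log2 difference -1.45 ± 0.21 SE, adjusted p = 7.90e-04). Ift74 overlaps Lrrc19, at 0.101 CPM on average in wild type and Mir872 at 0. Ift81 had 89.7, 86.6 and 88.7 CPM in wild type, 77.1, 68.5 and 84.7 CPM in GFP and 51.4, 48.5 and 47.96 CPM in rd10, which lay below all controls, with little spread in the wild type and rd10 groups (log2 difference -0.84 ± 0.13 SE, adjusted p = 0.00125). Ift57, a subunit at the edge of the complex, had 47.3, 48.9 and 59.4 CPM in wild type, 46.8, 54.3 and 44.3 CPM in GFP and 24.5, 28.2 and 30.8 CPM in rd10. All rd10 libraries were again below the controls, by 1.86-fold on average (log2 difference -0.90 ± 0.17 SE, adjusted p = 0.00339). Ift88 and Ift80, core and peripheral subunits, fell by smaller amounts (log2 difference -0.65 ± 0.17 SE, adjusted p = 0.0163, and log2 difference -0.47 ± 0.14 SE, adjusted p = 0.0305). The call of Ift88 was lost without wild type 3 or rd10 1, 2 or 3 (adjusted p 0.0523 to 0.0776) and that of Ift80 without wild type 1, 2 or 3 or rd10 1, 2 or 3 (adjusted p 0.0572 to 0.138). Among the 4 that did not pass, Ift20, which also works at the Golgi, had 42.4, 53.4 and 53.3 CPM in wild type, 48.5, 82.6 and 59.02 CPM in GFP and 48.1, 58.8 and 41.9 CPM in rd10. The groups overlapped throughout, with a difference of -0.0040 whose 95% interval was -0.48 to 0.47. The intervals were -0.39 to 0.32 for Ift46, -0.70 to 0.056 for Ift52 and -0.91 to 0.0028 for Ift172. Ift172 passed when GFP 2 was left out (log2 difference -0.43, adjusted p = 0.0455).

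Of the 5 genes of complex A, which serves the return to the base and the entry of membrane proteins, 2 fell. Ift122 had 84.6, 79.4 and 85.04 CPM in wild type, 97.2, 62.7 and 92.1 CPM in GFP and 29.5, 23.3 and 36.96 CPM in rd10. The rd10 libraries lay far below the others, GFP 2 being the lowest control, and the fall was 2.77-fold (log2 difference -1.47 ± 0.21 SE, adjusted p = 6.62e-04). Wdr35, also called IFT121, had 87.1, 60.1 and 65.98 CPM in wild type, 70.8, 45.2 and 74.3 CPM in GFP and 48.04, 44.03 and 45.4 CPM in rd10. GFP 2 lay among the rd10 values, and the difference from wild type passed narrowly (log2 difference -0.63 ± 0.21 SE, adjusted p = 0.0423). That call was lost without wild type 1, 2 or 3, rd10 1, 2 or 3 or GFP 1 or 3 (adjusted p 0.0534 to 0.171). The other 3, Ift140, Ttc21b and Wdr19, had 95% intervals of -0.66 to 0.54, -0.99 to 0.13 and -1.36 to 0.21. Ift140 overlaps Tmem204, which averaged 3.08 CPM in wild type.

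None of the 3 motor genes passed the test in rd10 against wild type. Among related motor genes outside the 45, Kif3b (-1.17), Wdr60 (-1.59), Wdr34 (-1.16) and Dync2li1 (-0.98) fell. Kif3c (0.50) and Kifap3 (0.28) did not pass. Kif3a, a subunit of the main kinesin-2 motor, had 156, 142 and 188 CPM in wild type, 147, 242 and 127 CPM in GFP and 195, 195 and 182 CPM in rd10. The rd10 libraries were at the upper end of the range of the controls, below GFP 2 (log2 difference 0.23 ± 0.23 SE, adjusted p = 0.462, 95% interval -0.27 to 0.74). Kif17, a kinesin-2 of identical chains, was the least expressed of the 45 genes, with 6.97, 5.29 and 8.92 CPM in wild type, 4.35, 4.93 and 3.53 CPM in GFP and 4.90, 7.002 and 6.64 CPM in rd10. Its groups overlapped and the 95% interval was -0.82 to 0.44. Dync2h1, the heavy chain of the dynein that returns the trains, had an interval of -0.61 to 0.45 around -0.082. It was called lower once a trend on transcript length was removed, as given below. Over the 17 IFT and motor genes the median log2 difference was -0.45 and 7 fell. Over the 11 BBSome and chaperonin-like genes it was -1.69 and 11 fell, and the difference between these sets was not tested. The summed level of the IFT and motor genes was 1068 to 1154 CPM in wild type, 1053 to 1122 CPM in GFP and 833 to 869.9 CPM in rd10. That of the BBSome genes with Bbs10, Bbs12 and Mkks was 1282 to 1447, 1184 to 1469 and 391 to 413 CPM.

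Of the 14 genes of the connecting cilium, transition zone and basal body, 10 fell and 0 rose, with a median of -0.98. Rpgrip1 (chromosome 14, 52730578 to 52781014, plus strand, mm9), which anchors the GTPase regulator Rpgr in the connecting cilium, had 785, 566 and 577 CPM in wild type, 720.0, 598 and 649 CPM in GFP and 90.00, 104 and 130.4 CPM in rd10. Wild type 1 and GFP 1 were the highest in their groups, every rd10 library was far lower, and the fall was 5.94-fold (log2 difference -2.57 ± 0.21 SE, adjusted p = 9.54e-06). Rpgrip1 overlaps Supt16h in the deposited annotation. The partner averaged 122 ± 28.7 CPM (SD, n = 3) in wild type and 90.9 ± 1.30 CPM (SD, n = 3) in rd10, so reads of the partner could add to the Rpgrip1 values if strand was not used. Cep164 (chromosome 9, 45575029 to 45636721, minus strand, mm9), a protein of the distal appendages that dock the basal body, had 323, 248 and 199.8 CPM in wild type, 310.0, 198 and 268 CPM in GFP and 34.8, 36.2 and 47.9 CPM in rd10. Wild type 3 and GFP 2 were the lowest controls and still far above rd10, a 6.48-fold difference (log2 difference -2.70 ± 0.24 SE, adjusted p = 2.23e-05). Cep290, part of the links between microtubules and membrane in the transition zone, had 264, 175 and 227 CPM in wild type, 234, 252 and 198 CPM in GFP and 82.7, 89.8 and 76.8 CPM in rd10. It fell 2.67-fold, with rd10 below all controls (log2 difference -1.42 ± 0.18 SE, adjusted p = 3.48e-04). It overlaps 4930430F08Rik, which averaged 20.8 CPM in wild type and 19.2 CPM in rd10. Lca5, which encodes lebercilin, fell by 1.75 on the log2 scale, and the transition zone genes Nphp4, Tmem67, Mks1 and Cc2d2a differed by -1.37, -1.26, -1.21 and -0.74. Rpgrip1l and the centrosomal gene Sdccag8 passed with smaller differences of -0.62 and -0.57 (adjusted p = 0.0379 and 0.0376). The call of Rpgrip1l was lost without wild type 1, 2 or 3, rd10 1, 2 or 3 or GFP 3 (adjusted p 0.0530 to 0.150), and that of Sdccag8 without wild type 1, 2 or 3, rd10 1, 2 or 3 or GFP 1 or 3 (adjusted p 0.0508 to 0.168). The 4 that did not pass were Rpgr, Spata7, Ahi1 and Iqcb1, with 95% intervals of -1.22 to 0.044, -0.88 to 0.16, -0.47 to 0.32 and -0.32 to 0.67. Rpgr itself had 39.6, 25.5 and 43.9 CPM in wild type, 32.2, 56.5 and 28.03 CPM in GFP and 21.2, 27.5 and 23.8 CPM in rd10, with rd10 2 above wild type 2, so the rd10 values reached into the lower controls. Iqcb1, which binds Cep290, overlaps Eaf2, which averaged 4.23 CPM in wild type.

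Related genes were set against each other within each library, where scaling cancels, as the log2 ratio of counts with 0.5 added. The 4 pairs were compared, 3 rd10 against 6 control libraries, by a two-sided exact permutation test whose smallest possible p is 0.0238. Rpgrip1l is the broadly expressed relative of Rpgrip1, with 35.6, 25.3 and 26.8 CPM in wild type, 32.8, 23.8 and 28.6 CPM in GFP and 20.1, 17.1 and 19.8 CPM in rd10. The log2 ratio of Rpgrip1 to Rpgrip1l was 4.46, 4.48 and 4.43 in wild type, 4.45, 4.65 and 4.50 in GFP and 2.16, 2.61 and 2.72 in rd10. All rd10 ratios were below all control ratios, with a log2 difference of -2.0 (exact permutation p = 0.0238, Benjamini-Hochberg adjusted over the 4 pairs 0.0476). Unc119b, the relative of Unc119, had 44.2, 46.6 and 35.7 CPM in wild type, 47.98, 41.7 and 56.3 CPM in GFP and 33.03, 42.01 and 36.6 CPM in rd10, and the log2 ratio of Unc119 to Unc119b was 5.28, 5.59 and 5.97 in wild type, 5.04, 6.02 and 5.25 in GFP and 3.17, 2.84 and 3.04 in rd10. The rd10 ratios were again all lower, by a log2 difference of -2.51 (exact permutation p = 0.0238, adjusted 0.0476), while Unc119b itself did not pass the test of rd10 against wild type (95% interval -0.57 to 0.21). Both pairs stood at the smallest possible p, and each passed after adjustment only because the other did. The ratios come from the same libraries as the falls of Rpgrip1 and Unc119, so they are not separate support for those falls. For Arl3 to Arl6 the ratio differed by 0.12 with overlapping values (exact permutation, adjusted p = 0.762), and for Kif17 to Kif3a by -0.053 (exact permutation, adjusted p = 0.810). Set against wild type alone, the differences were -1.96 for Rpgrip1 and -2.60 for Unc119, a design of 3 against 3 that cannot pass the threshold.

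**Figure D3:**
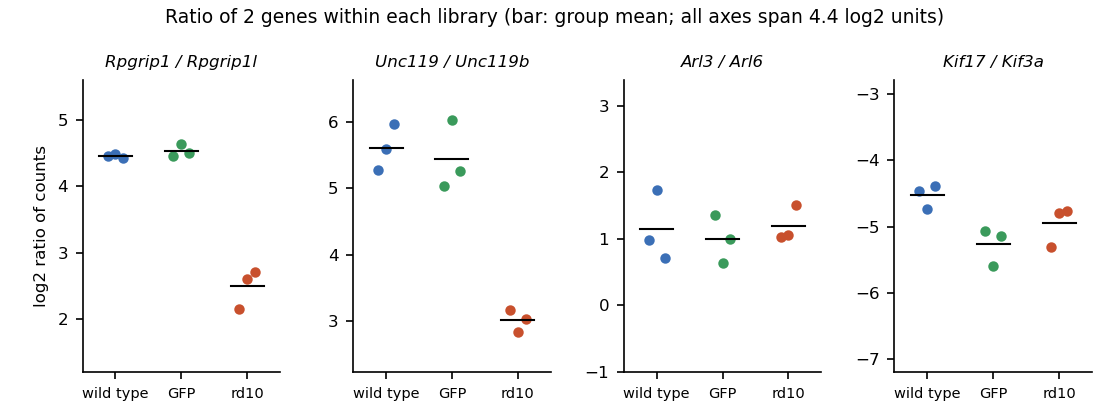
Log2 ratio of the counts of 2 related genes within each library, by group, with a bar at the group mean; each panel spans the same number of log2 units. The rd10 points of Rpgrip1/Rpgrip1l and Unc119/Unc119b lie below all 6 control points, and those of Arl3/Arl6 and Kif17/Kif3a lie among them.

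A further 67 cilium genes outside the 45 were read from a list of related roles, and 66 of them passed the filter on low counts, all but Ttc30a2. Of the 66, 36 fell and 1 rose in rd10 against wild type, with a median of -0.64. The largest falls were in the photoreceptor axoneme group, where 6 of 8 fell with a median of -3.09. Rp1, a microtubule-binding gene of the axoneme, and its relative Rp1l1 differed most, by -5.25 and -3.90. By smallest adjusted p, Fam161a (-3.10), the kinase gene Mak (-3.07) and BC027072, now called Pcare (-3.45) encode proteins of the photoreceptor cilium. Of 16 further IFT, BBSome and motor genes 12 fell (median -0.75), including the dynein-2 intermediate chain gene Wdr60 (-1.59), the IFT-B gene Ttc26 (-1.46) and Kif3b (-1.17), the partner chain of Kif3a. Of 15 further transition zone genes 8 fell (median -0.93), with -1.94 for Tctn2, -1.83 for Tmem138 and -1.32 for Tmem216. Of 15 centriole and basal body genes 7 fell (median -0.33), among them Ccdc123, now Cep89 (-1.68), Poc1b (-1.47) and the rootlet gene Crocc (-1.36). Of 12 genes for targeting to the ciliary membrane 3 fell and 1 rose (median -0.17). Those that fell were Tulp1 (-3.26), a tubby-like gene of photoreceptors, Arl13b (-2.65), the exchange factor for Arl3, and Rab28 (-1.27). Tulp3, singled out here after its values were seen, was the only one of the 66 to rise under TMM, whereas 2 rose without wild type 1 or without GFP 2 and 7 with library totals. It had 26.4, 23.6 and 29.9 CPM in wild type, 23.6, 23.7 and 25.8 CPM in GFP and 47.1, 54.97 and 55.1 CPM in rd10 (log2 difference 0.98 ± 0.16 SE, adjusted p = 0.00172). Genes of motile cilia were low throughout, with a summed level of 38.97 to 52.1 CPM in wild type and 40.8 to 43.5 CPM in rd10. Of these, 11 of 13 were tested and 1 fell, Dnaic2 (-2.31), an axonemal dynein chain gene. Of 5 RFX factor genes tested, Rfx1 (-0.98) and Rfx2 (-0.86) fell, with Rfx2 losing its call without wild type 1 or 2 or rd10 1 or 2 (adjusted p 0.0513 to 0.111).

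**Figure D4:**
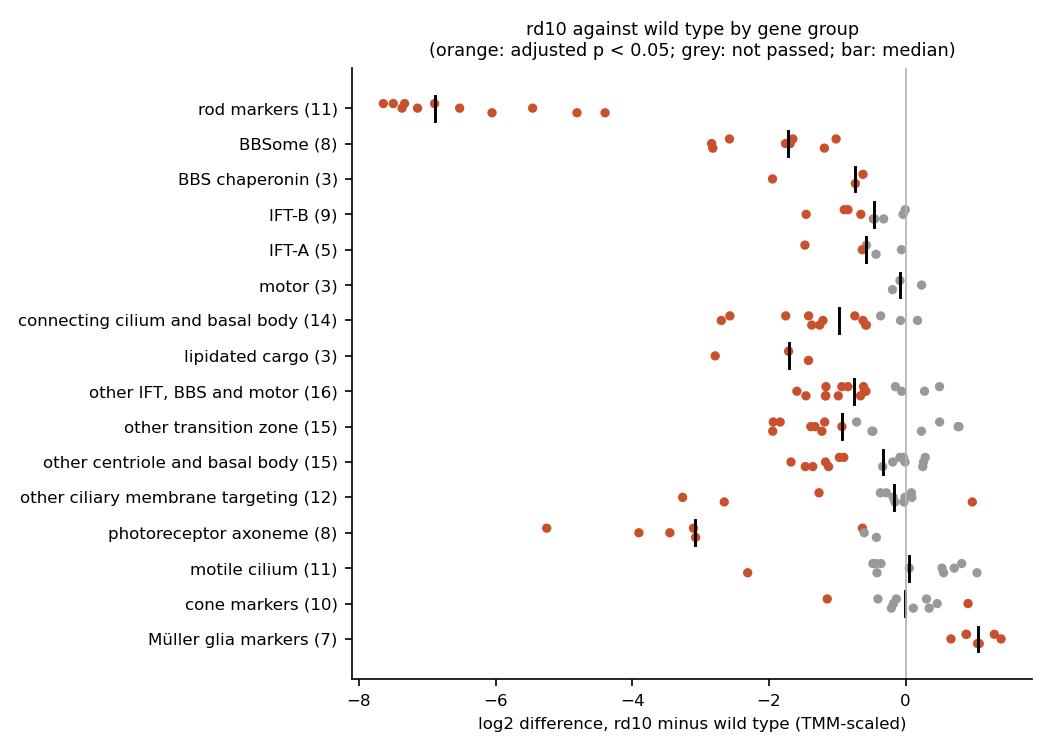
Log2 difference of rd10 minus wild type for each gene of the groups named in the text, with a bar at the group median and the number of genes tested in brackets; orange points passed an adjusted p of 0.05. The BBSome and lipidated cargo genes lie wholly below 0, the motor genes lie around 0, and rod markers lie lower than all 45 cilium genes.

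The rd10 libraries were also set against the GFP group, and since both comparisons share the rd10 libraries their values are given side by side only. Against GFP, 28 of the 45 genes were lower in rd10 and 0 were higher, against 15.0% and 15.2% of all genes tested, and 21 were at least 2-fold lower, against 7.20%. The median log2 difference was -0.73, and over all genes tested it was -0.022. All 28 were also lower than in wild type, as were 12.3% of all genes tested in both comparisons. Unc119 was 7.19-fold lower than in GFP (log2 difference -2.85 ± 0.22 SE, adjusted p = 7.03e-06), Bbs9 6.75-fold lower (log2 difference -2.75 ± 0.14 SE, adjusted p = 5.08e-07) and Rpgrip1 6.06-fold lower (log2 difference -2.60 ± 0.21 SE, adjusted p = 8.42e-06). Bbs10, Wdr35 and Sdccag8 passed against wild type only, with -0.43, -0.47 and -0.35 against GFP (adjusted p = 0.140, 0.106 and 0.160). The gap between these falls is the difference of GFP from wild type, which did not pass for any of the 3 (95% intervals -0.65 to 0.27, -0.62 to 0.29 and -0.62 to 0.18). Wdr35 passed against GFP without GFP 2 (-0.66, adjusted p = 0.0158). Between GFP and wild type, 0 of the 45 genes and 0.00% of all genes tested passed edgeR's test in either direction, with log2 differences from -0.73 to 0.37 over the 45. At an unadjusted p under 0.05, 2 of the 45, Mks1 (-0.48) and Kif17 (-0.73), and 214 of all genes, or 1.50%, differed, and DESeq2 called 0 of the 45.

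The control libraries that stood apart differed from their group along transcript length, and the 45 genes showed it. Over the 45 genes, the log2 deviation of GFP 2 from the mean of GFP 1 and 3 had a correlation of -0.66 with log2 transcript length, and over 14142 genes with a length it was -0.48. For wild type 3 against wild type 1 and 2 the values were -0.49 and -0.41, and for the difference of rd10 from wild type 0.25 and 0.19. These are descriptions across genes of the same libraries. In GFP 2 the long transcript of Wdr19 was -1.41 from the other GFP libraries and the short transcripts of Pde6d and Bbs5 were 0.98 and 0.92 from them. The rd10 values of Pde6d and Bbs5 stayed below every control. With a trend on length removed in each library, 34 of the 45 genes were lower in rd10 than in wild type. The set then included Dync2h1 (-0.42), Ift172 (-0.62) and Wdr19 (-0.78). Calls over all genes rose too. They were 2512 lower and 2550 higher of 14142, against 1988 and 2067 of 14300 with the trend left in.

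**Figure D5:**
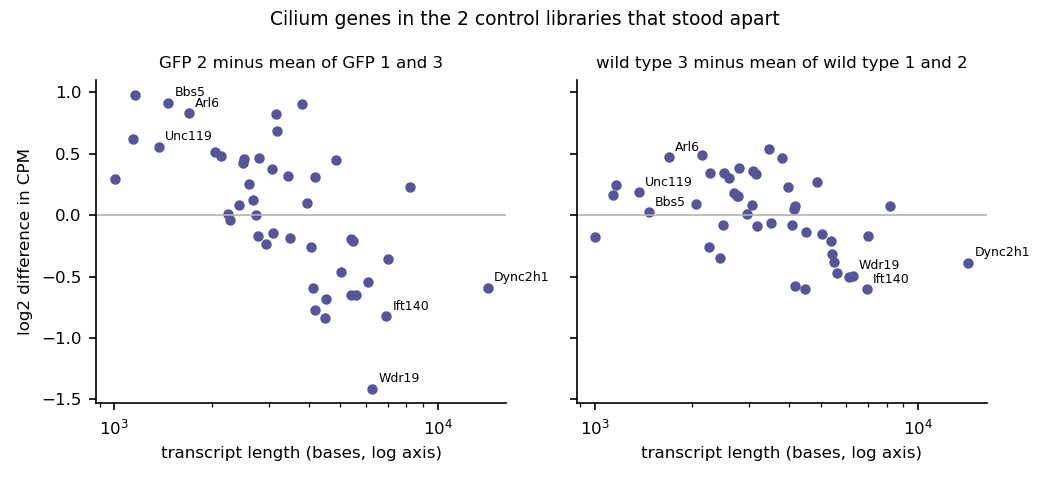
Log2 deviation of GFP 2 and wild type 3, a panel each, from the mean of the other libraries of their group, for the 45 genes, against transcript length in bases on a log axis. Long transcripts tend to lie low and short ones high, with exceptions such as Cep290, long and above 0 in both panels, and with correlations of -0.66 and -0.49.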

How the data were processed

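Whole mouse retina was measured by polyA RNA sequencing in 3 wild type, 3 rd10 and 3 GFP libraries, grouped by their genotype labels. The deposited values were raw read counts per gene made by the authors on mm9, per the submitters' processing notes; the aligner, counter, annotation and strand setting are not given in the sources used here. Totals per library ran from 9597635 to 12149448, so 1 CPM before TMM scaling stood for 9.60 to 12.1 counts. TMM factors, from 0.894 in wild type 2 to 1.18 in rd10 2, then rescaled these. The 45 genes had 37 to 23710 counts per library. Replicates differed by more than counting noise (chi-square per degree of freedom 13.1 to 76.1), and p-values measure the spread between these libraries. Genes were kept by filterByExpr (minimum count 10, total 15), which left 14300 with all 45, scaled by TMM and fitted in 1 edgeR 4.0.16 model in R 4.3.3. Groups were compared by the quasi-likelihood F-test with Benjamini-Hochberg adjustment over all genes tested. Differences carry an SE derived from the F statistic, and the per-gene 95% interval was built on that SE. Alternatives were other scalings, DESeq2 1.42.0, no filter, a replicate block, 2 groups only, a length trend and libraries left out; leaving out wild type 3 and GFP 2, and every library in turn for the pairs, was chosen after seeing the data. The 45 genes and all lists were chosen with earlier results of these data known. Values in every library were given for up to 3 passing genes per role by smallest adjusted p and for the pairs. Those of Ift20, Rpgr and Tulp3 were added after they were seen, as were the log2 differences of Rp1 and Rp1l1. The log2 differences of Bbip1, Wdr34, Dync2li1, Kif3c and Kifap3 are also given outside the rule of up to 3 genes per role. Lengths were those of GENCODE transcripts and positions are those of the files, with 1 added to the start. The fitting was tested on simulated data. Replicate numbers were not treated as pairs in the main fit. Same-number correlations of deviations from group means ran from -0.37 to 0.36, with 4 of 9 over 0.1. Groups of 3 are too small for these values to exclude pairing.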

Additional observations from a re-analysis of the deposited data

How the results depend on the processing

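The count of genes lower in rd10 than in wild type, 31 of 45, ran from 24 to 32 when any 1 library was left out, and that against GFP from 24 to 30 around 28. It was 24 with library totals, 25 with upper quartile scaling, 29 with DESeq2's size factors, 26 without the filter and 31 with DESeq2. Over all genes, 1596 of 14300 were lower than in wild type with upper quartile scaling and 1890 of 14300 with DESeq2's size factors. The numbers were 1808 of 17539 without the filter and 2243 of 17539 with DESeq2. With 1 library left out, 1186 to 2530 of 14437 to 14549 genes were lower than in wild type and 1305 to 2138 lower than in GFP. Without the 4 libraries with lens transcripts, where wild type 1 is alone in its group, fewer calls passed, over the 45 genes and over all genes. The medians against wild type were then -0.86 for the 45 genes and -0.70 for the other cilium genes, against -0.84 and -0.64. The calls against wild type lost in that fit included those of every IFT gene that fell. Ift57, Ift74, Ift81 and Ift122 were among them, though they held without any 1 library. Bbs1, Bbs4, Nphp4, Tmem67, Mks1, Cc2d2a and Pde6d also lost their calls there. Library totals moved the median of all genes to 0.25 and the calls over all genes from 1988 lower and 2067 higher to 1077 lower and 3604 higher. Against GFP, 1 of the 45 genes was higher with library totals (Kif17) and 1 without wild type 3 and GFP 2 (Kif3a). Over all genes, 4041 of 14300 and 2434 of 14447 were higher in these fits. Of the 31 calls, 24 held without any 1 library, and 13 held under all 19 alternatives. With the replicate number as a block, 29 of the 45 genes were lower than in wild type and 26 lower than in GFP. Over all 14300 genes tested, 1789 and 1912 were lower. Counting depth limits Kif17, the gene with the lowest counts, most.

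The difference of 6 genes near 0 turned positive under some settings, all of them without a call in the direction gained against wild type. Ift20 gave 0.29 with library totals, 0.018 with DESeq2's size factors, 0.076 with upper quartile scaling, 0.015 without the filter, 0.27 with the length trend removed, 0.081 without the lens libraries, 0.046 without wild type 3 and GFP 2, and 0.017 with DESeq2. With library totals, Ift46, Ift140, Dync2h1, Kif17 and Ahi1 gave 0.25, 0.23, 0.20, 0.083 and 0.21, and Unc119b, outside the 45, gave 0.11. With upper quartile scaling, Ift46, Ift140, Dync2h1 and Ahi1 gave 0.043, 0.018, 0.0016 and 0.0040. Ift46 gave 0.085 without the lens libraries, and Kif17 and Ahi1 gave 0.0092 and 0.016 without wild type 3 and GFP 2. With 1 library left out, the ranges against wild type were -0.12 to 0.13 for Ift20, -0.10 to 0.049 for Ift46, -0.24 to 0.092 for Ift140, -0.22 to 0.26 for Dync2h1, -0.35 to 0.0092 for Kif17 and -0.17 to 0.016 for Ahi1.

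The pair differences kept their direction but not their call when samples were removed, since fewer samples leave a larger smallest p: Rpgrip1 to Rpgrip1l gave -2.11 to -1.83 with 1 library left out, -1.96 against wild type alone and -1.98 without wild type 3 and GFP 2, and Unc119 to Unc119b gave -2.61 to -2.41, -2.60 and -2.28. Arl3 to Arl6 changed sign to -0.075 without wild type 3 and GFP 2 and ran from -0.034 to 0.26 with 1 library left out, and Kif17 to Kif3a ran from -0.19 to 0.12; the cause was not tested.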
